A study of Mus musculus with 6 samples.

Results

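Prothymosin alpha (Ptma) and parathymosin (Ptms) are a pair of small acidic proteins, and their RNA was examined in mouse OT1 CD8+ T cells that carried a PTMA overexpression construct or the empty vector. The members are the 2 rows of the deposited table named Ptma and Ptms, out of 27480 genes, and both passed the filter on low counts that left 16592 genes for testing. OT1 cells are cytotoxic T cells with a transgenic receptor for a peptide of ovalbumin (OVA). There were 3 libraries of cells with the PTMA construct (PTMA 1 to 3) and 3 of cells with the vector (vector 1 to 3). Every sample carries the genotype label WT and came from CD8+ T cells kept with OVA peptide for 48 h. The labels name neither the promoter of the construct nor the species of its insert. They also leave unsaid whether replicates were separate animals or cultures, and the p-values therefore cover a spread between libraries that may be technical.

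Prothymosin alpha is an abundant, intrinsically disordered nuclear protein that binds linker histone H1 and is most plentiful in dividing cells, where MYC is known to activate its gene. In the cytosol it can restrain assembly of the apoptosome, and it binds KEAP1, the repressor of the antioxidant factor NRF2. Its first residues are released as the peptide thymosin alpha 1 by legumain. Parathymosin is its closest relative, also binds linker histone and zinc, and is less well studied. The table's own gene ontology terms give histone binding, histone exchange and negative regulation of apoptosis for Ptma, and zinc ion binding for Ptms, with the cytosol as a shared location.

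Ptma (ENSMUSG00000026238) lies on the plus strand of chromosome 1, from 86526726 to 86530712 on GRCm38. Ptms (ENSMUSG00000030122) lies on the minus strand of chromosome 6, from 124913681 to 124917946 in the table. In GENCODE M21 the main mRNA of each gene has 5 exons. The Ptma mRNA of 1216 bases has a coding region of 336 bases, 27.6% of its length, with 180 bases before and 700 bases after it. The Ptms mRNA of 1149 bases has a coding region of 306 bases. The first 300 coding bases of each are shown, from the A of the start codon, because they hold most of the acidic codons and because a cDNA construct would usually carry the coding region. Capitals mark the in-frame codons for aspartate or glutamate.
Ptma: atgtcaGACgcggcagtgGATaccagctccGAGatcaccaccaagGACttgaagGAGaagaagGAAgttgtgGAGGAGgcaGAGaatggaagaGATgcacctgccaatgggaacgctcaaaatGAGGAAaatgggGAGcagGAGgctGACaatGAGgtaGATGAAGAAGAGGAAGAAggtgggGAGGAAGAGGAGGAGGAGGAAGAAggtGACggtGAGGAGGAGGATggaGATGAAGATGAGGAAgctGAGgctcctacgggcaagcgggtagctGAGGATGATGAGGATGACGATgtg
Ptms: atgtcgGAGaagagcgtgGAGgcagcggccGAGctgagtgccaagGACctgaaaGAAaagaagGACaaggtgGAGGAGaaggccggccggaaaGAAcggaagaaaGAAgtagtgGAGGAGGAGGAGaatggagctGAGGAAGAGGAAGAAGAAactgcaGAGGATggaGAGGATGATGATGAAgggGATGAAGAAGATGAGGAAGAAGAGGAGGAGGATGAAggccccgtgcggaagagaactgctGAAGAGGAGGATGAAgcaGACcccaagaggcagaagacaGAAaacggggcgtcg

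Of the 111 codons before the Ptma stop codon, 53 (47.7%) encode an acidic residue, with up to 8 in a row. In Ptms it is 46 of 101 codons (45.5%), with up to 12 in a row. Lysine and arginine codons number 10 in Ptma and 18 in Ptms. Neither coding region has a codon for an aromatic residue or for cysteine. Aligned end to end, the coding regions are 58.2% identical. No stretch of 50 bases of the Ptms mRNA occurs in a GENCODE transcript of another gene, whereas 27.8% of such stretches of the Ptma mRNA do.

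Library totals ran from 54989408 to 66767589 counts. All 7 markers of CD8 T cells were above the floor of 3 counts in every library, with a summed level of 4331 to 4572 CPM (counts scaled by library total) in PTMA and 4318 to 4740 in vector libraries. Some markers of other cells moved with the groups. A list of 8 oocyte genes summed to 1.54 to 4.34 CPM in PTMA and 24.2 to 34.6 in vector libraries, with 2 of 8 above the floor everywhere. The 4 B cell markers with a row summed to 5.38 to 6.55 and 4.02 to 5.04 CPM, and 3 NK cell markers, one of them Eomes, which CD8 T cells also express, to 40.0 to 45.6 and 48.3 to 51.0 CPM, in PTMA and vector libraries. The part of these cells in the Ptma level was not tested. In bulk RNA, fewer cells of a type and less RNA per cell cannot be told apart. Summed levels overlapped between the groups for the lists of CD4 T cells (3 genes with a row), myeloid and dendritic cells (4), mature dendritic cells (5), stroma (5) and keratinocytes (4). The mature dendritic cell list, which includes Ccr7, summed to 343 to 379 CPM in PTMA and 326 to 370 CPM in vector libraries. Whether this RNA came from dendritic cells or from the T cells themselves was not tested. The lists of B cells, myeloid and dendritic cells, stroma and keratinocytes did not exceed 26.7 CPM in any library.

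Ptma was among the most abundant RNAs of these cells in both groups, and its level was 1.36 times as high in the PTMA libraries as in the vector libraries, a difference that did not pass the test. FPKM, the authors' length-scaled level, allows genes to be set side by side, given the gene lengths the authors used. Ptma stood at 709, 819 and 791 FPKM in PTMA 1 to 3 and at 516, 504 and 680 FPKM in vector 1 to 3. All PTMA libraries thus lay above all vector libraries, but PTMA 1 and vector 3 came close to each other. The mean was 773 ± 57.5 FPKM in PTMA and 567 ± 98.3 FPKM in vector libraries (SD, n = 3 each). The coefficient of variation was 7.44% in PTMA and 17.3% in vector libraries.

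On the count scale, Ptma received 74801, 87986 and 83583 counts in PTMA 1 to 3, and 47488, 50558 and 71063 counts in vector 1 to 3. That is 0.114%, 0.132% and 0.127% of all counts in the PTMA libraries, and 0.0864%, 0.0803% and 0.113% in the vector libraries. The 95% Wilson interval of PTMA 1 was 0.113% to 0.115% and that of vector 3 was 0.112% to 0.114%. These intervals overlap and cover counting error only. The intervals of the other 4 libraries overlapped with none.

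**Figure D1:**
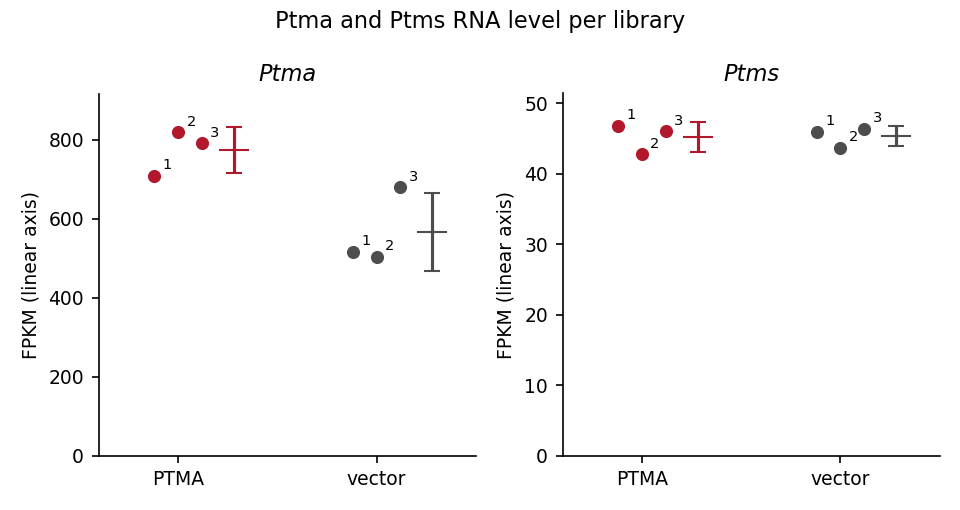
FPKM of Ptma and Ptms in each of the 6 libraries (points, numbered by replicate), with the mean and SD of each group beside them (n = 3), on linear axes that start at 0. The PTMA points of Ptma lie at 709 to 819 and the vector points at 504 to 680, while the Ptms points of the groups overlap between 42.8 and 46.8.

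The log2 fold change of Ptma was 0.44 (SE 0.13), with an adjusted p of 0.951 by edgeR's quasi-likelihood test, where genes under 0.05 pass. Its unadjusted p was 0.0090, with all 3 PTMA libraries above the vector libraries, and it ranked 113 by p-value among 16592 genes. The 95% interval of the fold change, not adjusted for the number of genes, was 1.10 to 1.67. Adjusted for all genes, 0.0121% of genes (2 of 16592) passed, and neither member was among them. An unadjusted p under 0.05 was reached by 4.65% of genes, Ptma among them. Every PTMA library lay above every vector library for 5.39% of the genes, again Ptma among them, and for 306 (13.0%) of the 2362 genes with a mean of at least 100 CPM. The exact two-sided permutation test of the Ptma FPKM gave p = 0.1, the smallest that 3 against 3 libraries can give.

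The size of the Ptma difference rested in part on vector 3. Without that library the log2 fold change was 0.63 (adjusted p = 0.101, edgeR). The p-values of other genes fell as well. An unadjusted p under 0.05 was then reached by 2668 of 17287 genes, against 771 of 16592 with all libraries. Without vector 2 the log2 fold change of Ptma was 0.34 (adjusted p = 0.998, edgeR). It stayed between 0.38 and 0.50 when any of the other libraries was left out. Vector 3 also stood apart in other ways. Ribosomal protein genes took 3.46% of its counts, against 2.68% to 2.98% in the other libraries, and mitochondrially encoded genes took 2.64%, against 1.86% to 2.38%. The part of these shares in the Ptma level was not tested.

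**Figure D2:**
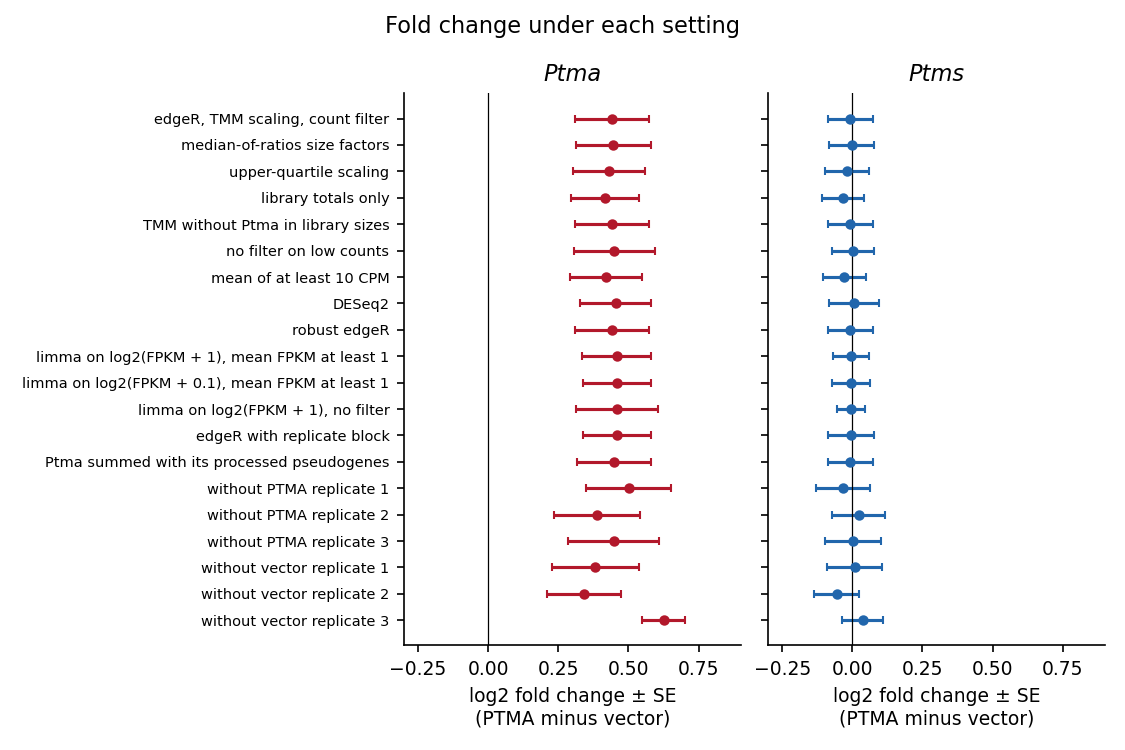
Log2 fold change (PTMA minus vector) of Ptma and of Ptms under each setting, with bars for 1 SE on either side and a line at 0. The Ptma values run from 0.34 to 0.63 and the Ptms values lie between -0.055 and 0.037.

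Among well-covered genes few differed by more than Ptma in either direction, and Ptma also varied more than most genes within the vector group. Of 2362 tested genes with a mean of at least 100 CPM, 2 had a larger log2 fold change than Ptma. They were Rps6kb2, a ribosomal protein S6 kinase, with 209 CPM in PTMA and 131 CPM in vector libraries (log2 fold change 0.67), and Gm9800, with 0.59. In the other direction, the histone gene Hist1h2ao had a difference of slightly larger size, at 158 CPM in PTMA and 216 CPM in vector libraries (log2 fold change -0.45). None of the 3 passed the test (adjusted p = 0.951 for each, edgeR). The SD of log2 CPM of Ptma was 0.11 among PTMA libraries, above that of 83.6% of these genes, whose median was 0.068. Among vector libraries it was 0.29, above that of 95.4% of them, whose median was 0.10.

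**Figure D3:**
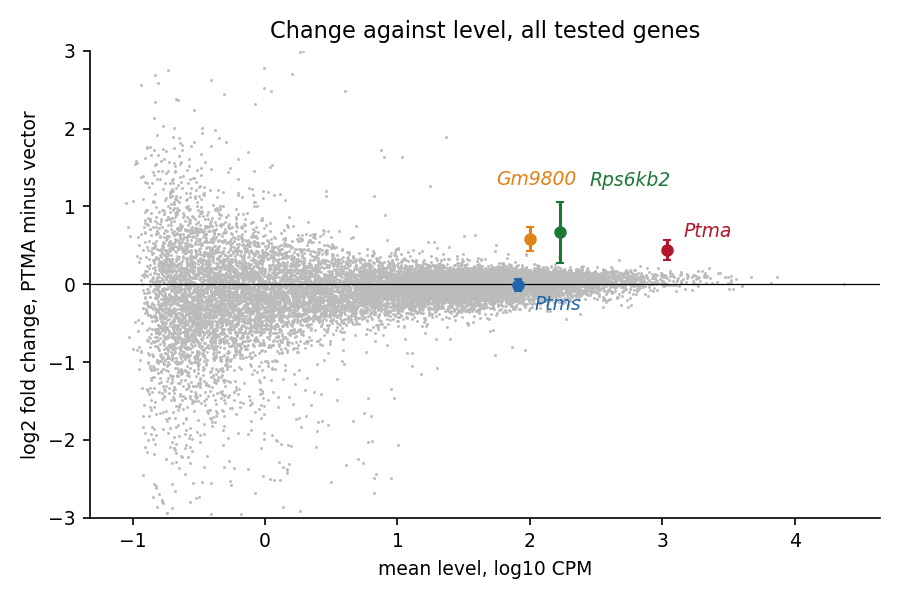
Log2 fold change (PTMA minus vector) against mean level (log10 CPM) for the 16592 tested genes (grey), with Ptma, Ptms, Gm9800 and Rps6kb2 marked and bars for 1 SE on either side. Ptma at 0.44 and Gm9800 at 0.59 lie above nearly all genes of their level, Ptms at -0.0073 lies on the zero line, and 40 genes beyond 3 in either direction are not shown.

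Ptms was present at a moderate level that hardly differed between the groups. It stood at 46.8, 42.8 and 46.0 FPKM in PTMA 1 to 3 and at 45.9, 43.7 and 46.4 FPKM in vector 1 to 3. The groups overlapped throughout, with the lowest value in PTMA 2 and the highest in PTMA 1. The means were 45.2 ± 2.12 FPKM in PTMA and 45.3 ± 1.45 FPKM in vector libraries (SD, n = 3 each). The counts behind these values were 5472, 5091 and 5385 in PTMA 1 to 3 and 4683, 4855 and 5368 in vector 1 to 3.

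The log2 fold change of Ptms was -0.0073 (SE 0.080; adjusted p = 0.993, edgeR). Its 95% interval runs from 0.878-fold to 1.13-fold, so these libraries leave room for a difference of that size in either direction. The sign of so small a value changed with the processing and with which library was left out, being positive in 6 of 18 alternatives. Among 8842 genes with a mean of at least 10 CPM, the SD of log2 CPM of Ptms was larger than that of 25.6% of genes in the PTMA group and of 40.0% in the vector group.

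By rank, Ptma was the 39th to 43rd most abundant gene per length in the PTMA libraries and the 43rd to 59th in the vector libraries, out of 27480. Its ranks were 43, 39 and 39 in PTMA 1 to 3 and 59, 58 and 43 in vector 1 to 3. Ptms ranked 1219, 1395 and 1249 in PTMA 1 to 3 and 1165, 1291 and 1216 in vector 1 to 3, within the top 5.08% of genes in every library. By mean FPKM over the 6 libraries, Ptma was at rank 43 with 669.8 FPKM. The gene directly above was the pseudogene Gm15427 (682 FPKM), and the gene directly below was Il2rg (641 FPKM), the common gamma chain of cytokine receptors. Il2rg averaged 667 ± 42.7 FPKM in PTMA and 615 ± 25.3 FPKM in vector libraries (SD, n = 3 each). Both lay within the range of Ptma over the libraries, so the order of these 3 neighbours is not resolved. Ptms was at rank 1254 with 45.3 FPKM, between the ciliary gene B9d2 and the syntaxin-binding gene Stxbp2, which were also at 45.3 FPKM.

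**Figure D4:**
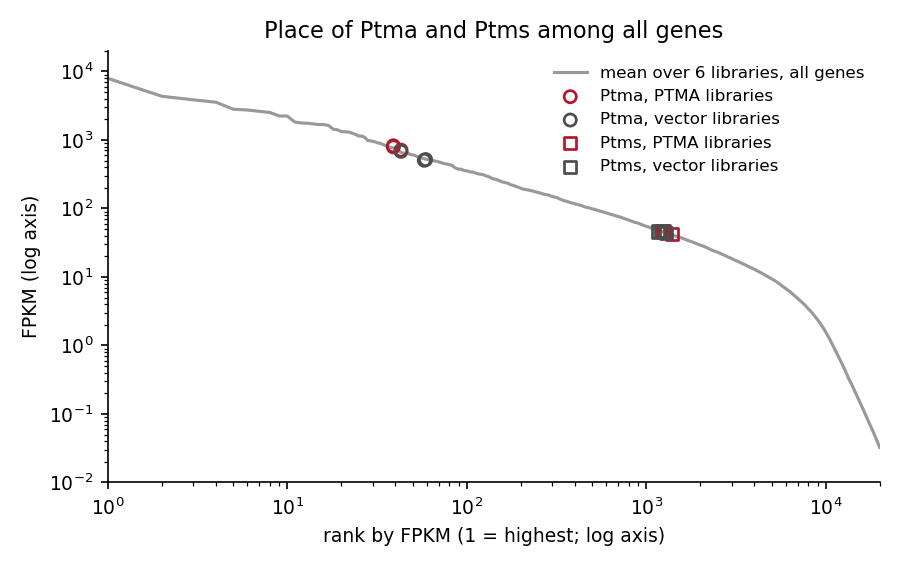
FPKM against rank by FPKM, both on log axes, with a grey line for the mean of all genes over the 6 libraries and an open symbol for each member in each library. Ptma sits at ranks 39 to 59 and Ptms at ranks 1165 to 1395.

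The members were also compared within each library, where the library size cancels. The ratio of Ptma FPKM to Ptms FPKM was 15.1, 19.1 and 17.2 in PTMA 1 to 3, and 11.2, 11.5 and 14.7 in vector 1 to 3. The lowest ratio among PTMA libraries was just above the highest among vector libraries. On the log2 scale the ratio averaged 4.09 ± 0.17 in PTMA and 3.63 ± 0.21 in vector libraries (SD, n = 3 each), a difference of 0.46. The exact two-sided permutation test gave p = 0.1, the smallest this design allows, with the ratio higher in 3 of 3 PTMA libraries. Since this test cannot reach the threshold of 0.05 with 3 libraries a group, it cannot decide whether the members responded differently.

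Reads of Ptma can match other places in the genome. In GENCODE M21, 20 genes resembled the Ptma mRNA over at least 200 bases on the same strand, and all 20 are annotated as processed pseudogenes, copies of the mRNA placed back into the genome. They lie on 12 chromosomes. The deposited table has a row for 11 of them, and 3 of these passed the filter on low counts. The named pseudogene Ptma-ps1 is not analysed here. Gm12504, which RefSeq calls Ptma-ps2, had 28 to 78 counts. The other 8 rows besides Gm9800 and Gm4617 had fewer, so that those 2 hold nearly all counts of the group.

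Gm9800 (ENSMUSG00000045799) lies on the minus strand of chromosome 14, from 8800000 to 8800335, and its annotated 336 bases correspond to the Ptma coding region without either UTR. It is 98.5% identical to that region, with the single substitution G110A, counted from 1 at the A of the Ptma start codon, and 4 gap bases. Gm4617 (ENSMUSG00000096544) lies on the plus strand of chromosome 3, from 124385667 to 124385997. Its 331 bases differ from the Ptma coding region only by gaps, 5 bases in all. The first 150 bases of Gm9800 are shown because they hold every base that separates its reads from those of Ptma, apart from its end. Capitals mark the substituted base and the inserted bases, and the rest can be read against the Ptma sequence above.
Gm9800: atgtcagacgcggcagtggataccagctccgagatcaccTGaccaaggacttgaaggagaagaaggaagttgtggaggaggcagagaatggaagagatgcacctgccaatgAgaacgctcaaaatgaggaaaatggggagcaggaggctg

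Of all stretches of 100 bases in the Ptma mRNA, 11.2% occur unchanged in Gm9800 and 12.9% in Gm4617. At 150 bases it is 7.03% and 4.69%. The counts assigned to these copies were not small. Gm9800 had 7115, 8509 and 7962 counts in PTMA 1 to 3, and 4009, 4265 and 6378 counts in vector 1 to 3. Its level was 322 ± 26.3 FPKM in PTMA and 213 ± 45.2 FPKM in vector libraries (SD, n = 3 each). The log2 fold change was 0.59 (SE 0.16; adjusted p = 0.951, edgeR). Gm4617 averaged 64.7 ± 10.8 FPKM in PTMA and 55.6 ± 7.60 FPKM in vector libraries (SD, n = 3 each), with a log2 fold change of 0.22 (SE 0.15; adjusted p = 0.951, edgeR).

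Per Ptma count, Gm9800 took more counts in each PTMA library than in any vector library. Its count was 9.51%, 9.67% and 9.53% of the Ptma count in PTMA 1 to 3, and 8.44%, 8.44% and 8.98% in vector 1 to 3. The ratio was thus 1.11 times as high in the PTMA libraries, and 1.10 to 1.13 times when any single library was left out. No test is given, since Gm9800 was singled out after its values were seen. By level, the groups did not overlap in either direction for 10.8% of all tested genes. The share for ratios to Ptma was not worked out. The Gm4617 count did not show this order, at 1.99%, 1.53% and 2.19% of the Ptma count in PTMA 1 to 3 and 2.82%, 2.24% and 1.76% in vector 1 to 3. Whether RNA of the construct is counted under Ptma, under Gm9800 or under neither was not tested. Counted as 1 gene with all 11 copies, Ptma had a log2 fold change of 0.45 (SE 0.13; adjusted p = 0.951, edgeR). The copies together came to 10.8% to 11.8% of the Ptma count in every library. This sum could therefore hardly differ from Ptma alone.

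**Figure D5:**
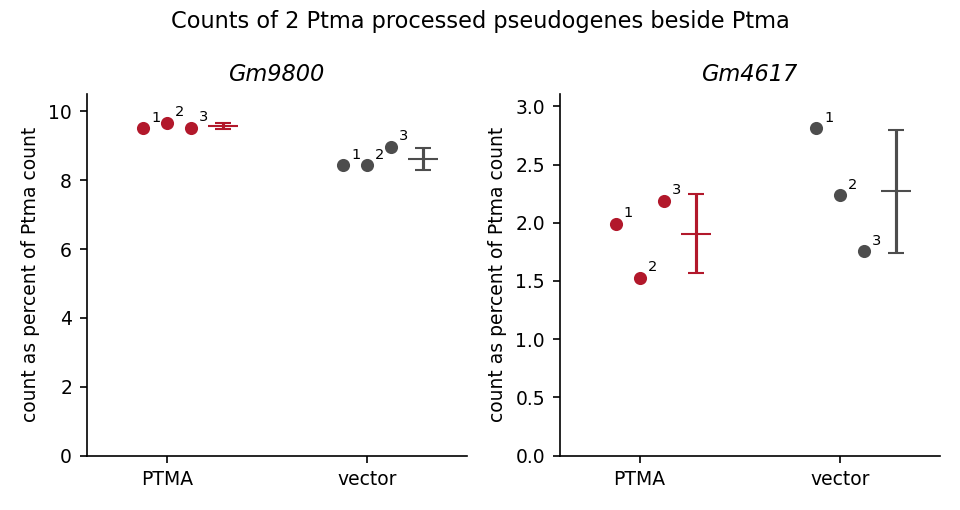
Counts of the processed pseudogenes Gm9800 and Gm4617 as a percent of the Ptma count of the same library (points, numbered by replicate), with the mean and SD of each group (n = 3), on linear axes that start at 0. The Gm9800 points lie at 9.51% to 9.67% in PTMA and 8.44% to 8.98% in vector libraries, while the Gm4617 points of the groups overlap.

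Around Ptms, the antisense gene A230083G16Rik overlaps the locus on the other strand. It had 3 to 10 counts in a library, at most 0.196% of the Ptms count. Whether Ptms reads were lost in the overlap was not tested. The inhibitory receptor gene Lag3 is the next gene on one side, at 1044 ± 68.7 CPM in PTMA and 1036 ± 109 CPM in vector libraries (SD, n = 3 each). Mlf2, on the other side, was at 274 ± 8.43 CPM in PTMA and 256 ± 6.50 CPM in vector libraries (SD, n = 3 each). Pde6d, downstream of Ptma, was at 22.3 ± 1.82 and 20.0 ± 4.44 CPM in PTMA and vector libraries (SD, n = 3 each). None of the 3 flanking genes passed the test (adjusted p = 0.991, 0.951 and 0.952, edgeR).

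The genes with the profile most like each member were found by the root mean square difference between log2 CPM profiles over the 6 libraries, each centred on its own mean, among 8842 genes with a mean of at least 10 CPM. Nearest to Ptma was its own copy Gm9800, at a difference of 0.082, where the median over all genes was 0.29. Next came 4933434E20Rik (0.088), Gm49510 (0.095), Snx22, a sorting nexin (0.12), and Rfc4, a subunit of the clamp loader of DNA replication (0.12). The matched 4933434E20Rik row averaged 45.2 CPM in PTMA and 35.7 CPM in vector libraries (log2 fold change 0.34). Another row of that name was more abundant, at 81.8 and 80.3 CPM, and hardly differed (log2 fold change 0.027). Rfc4 averaged 85.5 ± 4.35 CPM in PTMA and 70.3 ± 13.5 CPM in vector libraries (SD, n = 3 each). None of the 5 passed the test (adjusted p = 0.951 for each, edgeR). Nearest to Ptms, whose profile was almost flat, were D630039A03Rik (0.020), the 14-3-3 gene Ywhab (0.023), the zinc transporter gene Slc30a9 (0.025), the break repair nuclease gene Mre11a (0.026) and Sp110 (0.026), where the median was 0.13. With 6 libraries and this many genes, such nearness is a description only.

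Partner and pathway genes of prothymosin alpha showed no call. Of 32 listed genes with a row, 30 were tested, and 0 passed in either direction, where 0.0121% of all genes passed. Their median log2 fold change was 0.044, beside -0.015 over all tested genes, and 17 of 30 were positive, beside 46.8% of all genes. An unadjusted p under 0.05 was reached by 3 of 30, where 4.65% of all genes reached it. No partner had every PTMA library above every vector library (5.39% of all genes), and 3 had every PTMA library below (5.38% of all genes).

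Of the 9 chromatin and transcription partners, the acetyltransferase gene Crebbp had the smallest p-value, at 64.6 ± 7.14 CPM in PTMA and 78.7 ± 10.3 CPM in vector libraries (SD, n = 3 each). Set, an acidic histone chaperone, stood at 570.5 ± 25.1 and 585 ± 41.2 CPM in PTMA and vector libraries (SD, n = 3 each). Of 4 apoptosome and caspase genes, the one with the smallest p-value was Apaf1, the scaffold of the apoptosome, whose log2 fold change was -0.24 (SE 0.097) with 29.6 ± 1.78 CPM in PTMA and 34.9 ± 2.75 CPM in vector libraries (SD, n = 3 each). It was lower in every PTMA library than in any vector library, but its adjusted p was 0.951 (edgeR).

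Of the 6 tested KEAP1 and NRF2 genes, Keap1 itself had the smallest p-value, at 139 ± 5.23 CPM in PTMA and 130 ± 7.34 CPM in vector libraries (SD, n = 3 each). Log2 fold changes in that list ran from -0.13 to 0.12. Of 4 genes of nuclear import and processing, Kpna2, an importin alpha, had 739 ± 39.5 and 629 ± 74.0 CPM in PTMA and vector libraries (SD, n = 3 each), a log2 fold change of 0.23 (SE 0.089). The protease gene Lgmn was at a low level, with 1.12 ± 0.60 and 0.50 ± 0.28 CPM (SD, n = 3 each) in PTMA and vector libraries.

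Among 4 transcriptional regulators, Myc was at 309 ± 8.17 CPM in PTMA and 317 ± 13.3 CPM in vector libraries (SD, n = 3 each), a log2 fold change of -0.035 (SE 0.062). Its partner Max had the smallest p-value of that list, with 62.8 ± 25.8 CPM in PTMA and 46.7 ± 2.82 CPM in vector libraries (SD, n = 3 each). Of 3 tested genes of receptors for extracellular prothymosin and their adaptor, Tlr7 had the smallest p-value. Its level was low, at 0.16 ± 0.13 CPM in PTMA and 0.46 ± 0.26 CPM in vector libraries (SD, n = 3 each). Every gene named from these lists had an adjusted p of at least 0.951 (edgeR).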

How the data were processed

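Libraries of poly(A) RNA from 6 samples were read from both ends on an Illumina NovaSeq, per the labels' protocols. The authors deposited a single table of 27480 genes that holds raw counts for each library and FPKM, which divides fragments by the length of the gene and the size of the library, per the file headers. The tools in the submitters' processing notes are StringTie 1.3.0, HISAT2 2.0 and Bowtie 0.12.2, without their roles. The notes name the build mm8, but the deposited start and end of Ptma are those of GRCm38. How reads were counted, whether by strand and with which rule for several matches, is not given in the sources used here, so reads shared by Ptma and its copies may be split or dropped. The counts per unit of FPKM of each gene were set relative to its own value in vector 1. On that scale Ptma and Ptms deviated by at most 0.020% from the common factor of each other library, taken over 10141 genes. Counts, FPKM and library totals together imply a length of 1593 to 1673 bases for Ptma and 1765 to 1854 bases for Ptms. The GENCODE mRNAs described above have 1216 and 1149 bases. Ranks per length and the ratio of Ptma to Ptms thus depend on the authors' lengths.

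Groups and replicate numbers came from the sample titles. edgeR 4.0.16 (R 4.3.3) with TMM scaling, filterByExpr (minimum count 10) and the quasi-likelihood test was fitted across the whole table with group as the only term, and the Benjamini-Hochberg adjustment was used (threshold 0.05). CPM means counts scaled to the TMM-adjusted library size, except in the summed marker levels, which use the library total. Each log2 fold change is PTMA minus vector. Standard errors are the fold change divided by the square root of the quasi-likelihood F. Ranks and the ratio of Ptma to Ptms use the deposited FPKM. Alternatives were other scalings and filters, DESeq2 1.42.0, limma 3.58.1 on log2(FPKM + 1) and log2(FPKM + 0.1), a replicate block and leaving out each library. The edgeR procedure was tested on simulated data with known changes.

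Transcripts were taken from GENCODE M21 on GRCm38, whose Ptma start and end are those of the table. For Ptms the start is the same, but the gene ends at 124920103 in GENCODE M21 and at 124917946 in the table. Genes resembling the Ptma mRNA were found with blastn 2.17.0 (same strand, e-value at most 1e-10, at least 200 aligned bases). The members and gene lists were chosen with earlier results of these data known. Besides Ptma and Ptms, the named genes are the partner genes with the smallest p-value in each list, the 5 genes with the most similar profile and the direct neighbours by mean FPKM. Set, Myc and Lgmn were added from the same lists with their values known. The processed pseudogenes, the flanking and overlapping genes, and Rps6kb2 and Hist1h2ao were chosen after the values were seen. Same-numbered libraries had correlated deviations of -0.12, -0.16 and -0.12, so the numbers were not taken to pair them.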

Additional observations from a re-analysis of the deposited data

How the results depend on the processing

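The Ptma log2 fold change was positive in all 19 alternatives, between 0.34 and 0.63, and passed the threshold in none (adjusted p of at least 0.101). When single libraries were left out it was 0.34 to 0.63, the largest value being that without vector 3. Summing Ptma with its processed pseudogenes, an alternative chosen after seeing the data, gave 0.45. That sum is mostly Ptma itself and could hardly differ. The Ptms log2 fold change lay between -0.055 and 0.037 in 18 alternatives. It turned positive with no filter on low counts (0.0023) and with DESeq2 (0.0061). It was also positive without vector 1 (0.0091), vector 3 (0.037), PTMA 2 (0.023) or PTMA 3 (0.0023). Without vector 2 (-0.055) or PTMA 1 (-0.032) it stayed negative, and it never passed. The difference in the log2 ratio of Ptma to Ptms was 0.38 to 0.59 in 9 alternatives. The number of genes changed was 0 with no filter on low counts, 1 with a mean of at least 10 CPM, 47 with DESeq2, and with limma 1 on log2(FPKM + 1), 1 on log2(FPKM + 0.1) and 0 with no filter. It was 0 to 4 when a library was left out. With a replicate block it was 0, and the Ptma log2 fold change was 0.46 (adjusted p = 0.992) and that of Ptms -0.0056. Partner genes numbered 0 in all 18 alternatives. The rank of Ptma by mean FPKM was 32 without mitochondrially encoded and ribosomal protein genes. By counts, not per length, the ranks were 74 for Ptma and 2933 for Ptms. The cause of these shifts was not tested, except that more or fewer genes entered the tests and rankings with other filters. With 3 libraries a group, exact tests cannot go below 0.1.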
